A study of Homo sapiens with 9 samples.

Results

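The 10 genes described here encode surface proteins and galectins through which tumour cells restrain T cells, natural killer cells or macrophages: CD274 (PD-L1), PDCD1LG2 (PD-L2), CD276 (B7-H3), VTCN1 (B7-H4), PVR (CD155), LGALS1, LGALS3, LGALS9, NT5E (CD73) and CD47. They were chosen by name for these roles, with earlier results of these data known, and all 10 were among the 58676 genes of the count table. All 10 also passed the filter on low counts, which left 15975 genes for testing. OVCA433, an established line of human ovarian serous adenocarcinoma cells grown in culture, was sequenced in 9 libraries. In 3 libraries the cells carried a control vector (genotype WT in the labels), in 3 they carried shRNA hairpin #1 against MPZL3, and in 3 they carried hairpin #3 against MPZL3. All 3 groups had been transduced with lentivirus and selected with puromycin, and the replicates of each group are marked A, B and C. The study aimed to find which transcripts change when MPZL3, a single-pass membrane protein with an immunoglobulin-like domain, is reduced. Whether the control cells expressed a hairpin is uncertain, because the methods call their vector empty at one point and scrambled at another.

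Immune checkpoints are pairs of a ligand on one cell and a receptor on a lymphocyte that limit an immune response. PD-L1 and PD-L2 bind PD-1 on T cells, B7-H3 and B7-H4 are related ligands of the B7 family, and PVR binds TIGIT, CD96 and the activating receptor CD226. Galectins are secreted or cytosolic lectins that bind sugars on cell surfaces, CD73 turns extracellular AMP into adenosine, which dampens T cells, and CD47 binds SIRP alpha on macrophages and inhibits phagocytosis. In tumour cells, CD274 is well known to be induced by interferon gamma through JAK and STAT proteins and the factor IRF1.

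Of the 10 genes, CD274, VTCN1 and LGALS9 were called lower in the knockdown, with both hairpins pooled and with each hairpin on its own, and none was called higher. CD274 fell to 11.1% of its control mean with hairpin #1 and to 13.8% with hairpin #3. VTCN1 had no read in any knockdown library, and LGALS9 fell to 24.8% and 44.7% of control. PVR and LGALS3 fell by less than 2-fold, LGALS1 rose by less than 2-fold, and for PDCD1LG2, CD276 and CD47 no difference passed the test. NT5E was higher with hairpin #1 and not detectably so with hairpin #3. A gene was called where edgeR's quasi-likelihood test gave a Benjamini-Hochberg adjusted p under 0.05, over all tested genes, and the fold change was at least 2. By that rule 14.7% of all tested genes were called with both hairpins together (7.40% lower), 16.3% with hairpin #1 (8.55% lower) and 15.3% with hairpin #3 (7.83% lower), against 3 of these 10 genes in each comparison. Without the fold threshold, 6 of the 10 passed with both hairpins together, against 33.0% of all tested genes. In 6 of the 10, all 6 knockdown libraries lay on one side of all 3 control libraries (5 below and 1 above), which 33.1% of all tested genes also did. The median log2 fold change with both hairpins together was -0.41 over the 10 genes and 0.00454 over all tested genes.

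The promoters of the 3 called genes are shown because these had the largest falls of the 10. Each sequence is the RefSeq promoter on GRCh38.p14, from 250 bases before to 50 bases after the annotated start, in the direction of transcription, and capitals mark the matches to 5 motifs searched on both strands. The motifs were the interferon-stimulated response element (GAAANNGAAA, in 3.57% of 35116 RefSeq promoters), the gamma-activated site bound by STAT dimers (TTCNNNGAA, 7.66%), the AP-1 site (TGANTCA, 7.71%), the E-box bound by ZEB and SNAIL repressors (CAGGTG, 20.6%) and the NF-kB site (11.3%).
CD274, chr9:5450292-5450591, plus strand: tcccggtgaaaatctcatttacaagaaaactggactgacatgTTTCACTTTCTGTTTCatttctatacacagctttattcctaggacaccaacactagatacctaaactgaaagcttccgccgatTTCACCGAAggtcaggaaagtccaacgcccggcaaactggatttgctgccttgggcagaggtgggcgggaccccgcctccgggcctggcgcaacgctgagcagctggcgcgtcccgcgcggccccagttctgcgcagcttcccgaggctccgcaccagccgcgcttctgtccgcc
VTCN1, chr1:117210878-117211177, minus strand: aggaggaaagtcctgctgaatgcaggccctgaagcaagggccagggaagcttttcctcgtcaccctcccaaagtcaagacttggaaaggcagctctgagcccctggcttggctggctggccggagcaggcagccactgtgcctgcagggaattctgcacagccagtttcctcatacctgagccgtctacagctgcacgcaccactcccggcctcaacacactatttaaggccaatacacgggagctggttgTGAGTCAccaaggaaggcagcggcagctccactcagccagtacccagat
LGALS9, chr17:27630938-27631237, plus strand: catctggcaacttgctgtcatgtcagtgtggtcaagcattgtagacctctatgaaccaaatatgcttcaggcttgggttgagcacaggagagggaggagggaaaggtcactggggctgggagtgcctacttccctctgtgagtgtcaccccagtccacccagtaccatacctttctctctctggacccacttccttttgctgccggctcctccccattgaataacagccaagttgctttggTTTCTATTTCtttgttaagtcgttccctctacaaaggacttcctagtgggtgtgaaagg
The CD274 promoter held 2 matches to the interferon-stimulated response element, at positions 43 to 52 and 49 to 58 of the printed run and therefore overlapping, and 1 gamma-activated site at positions 126 to 134. The LGALS9 promoter held 1 interferon-stimulated response element at positions 242 to 251, and the VTCN1 promoter 1 AP-1 site at positions 252 to 258. The annotated LGALS9 gene of the count table begins upstream of this RefSeq start, at 27629798. Promoter entries matched 8 of the 10 genes by symbol. Among the other matched genes, 1 of the 2 CD276 entries and the LGALS3 entry each held 1 NF-kB match, PVR held 1 E-box, and NT5E and CD47 held no match. A match is a run of letters and was not tested as a binding site.

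The depth was similar across libraries, with 16850854 to 23890191 counts each. MPZL3 itself, the target, was at 15.6 to 21.9 CPM in the control libraries, 1.80 to 1.98 with hairpin #1 and 0.988 to 1.94 with hairpin #3. CPM are counts per 1000000 counts of the library, scaled with edgeR's TMM library factors. Of 17 leukocyte markers, 11 never exceeded 3 counts in any library, MS4A1, CD163 and LYZ were among those at 0 throughout, and their summed level was 1.82 to 2.95 CPM in the controls, 1.03 to 1.92 with hairpin #1 and 0.737 to 1.71 with hairpin #3. Markers of the labelled cell type moved with the knockdown: of 11, WT1 was at 0 in all libraries, PAX8 was called higher, 7 were called lower, and the summed level was 11470 to 14330 CPM in the controls, 5401 to 6912 with hairpin #1 and 5371 to 6053 with hairpin #3. The epithelial cadherin gene CDH1 went from 270.0 to 281.0 CPM in control to at most 0.353 CPM in the knockdown libraries, EPCAM from 375.7 to 420.1 CPM to at most 9.95 CPM, and MUC16 from 2.09 to 4.11 CPM to 0 in all 6. Of 12 fibroblast and endothelial markers, 7 were called higher and DCN was at 0 throughout, with a summed level of 21.6 to 25.2 CPM in the controls, 117 to 458 with hairpin #1 and 511 to 881 with hairpin #3. Among these, PDGFRB was at 0.287 to 0.846 CPM in control and at 8.18 to 19.9 CPM in the knockdown. The mean of all 6 knockdown libraries was at least 12.1-fold higher for COL1A2 and at least 20.5-fold higher for CDH5, against a floor of 3 counts in each control library. These bounds do not hold for each hairpin alone. COL1A2 was at 1.03 to 4.48 CPM with hairpin #1 and 0.78 to 1.00 with hairpin #3, a log2 difference of -1.60 (adjusted p 0.0434 in edgeR). CDH5 was at 1.12 to 3.52 CPM with hairpin #1 and 2.88 to 5.155 with hairpin #3. PDGFRB, COL1A2 and CDH5 together made up a small part of the summed level in the knockdown, which came mostly from markers not named here. The part of these marker changes in the values of the 10 genes was not tested. Since the libraries are bulk RNA, fewer cells with a transcript and less of it per cell cannot be told apart.

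**Figure D1:**
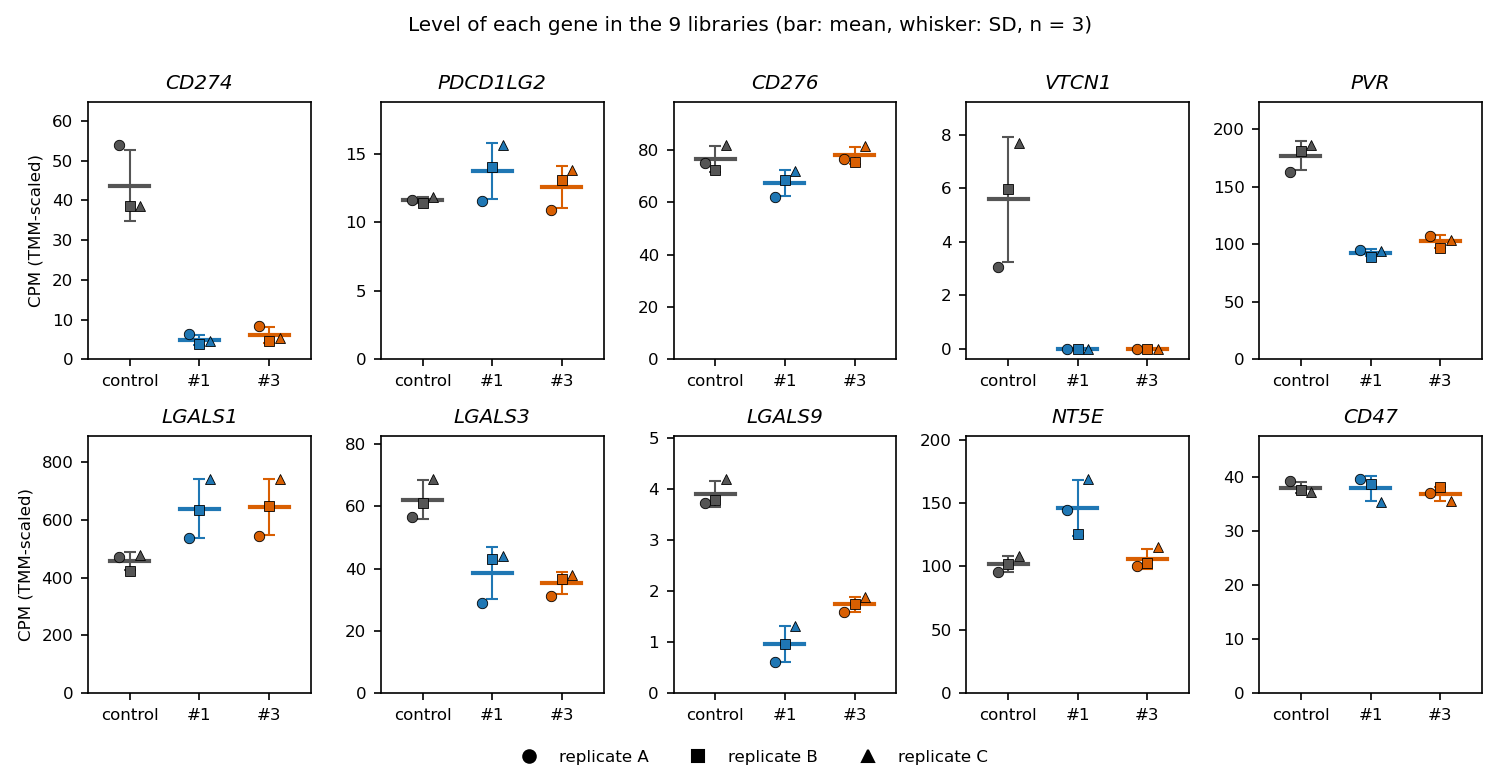
Level of each of the 10 genes in CPM (vertical axis) in the control, hairpin #1 and hairpin #3 libraries. Each panel has its own range, which starts at 0 or, for VTCN1, just below 0. Points are libraries, with the symbol giving the replicate letter, bars are means and whiskers the SD of 3 libraries. CD274, VTCN1, PVR, LGALS3 and LGALS9 were lower in all 6 knockdown libraries than in any control library, and LGALS1 was higher.

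CD274, on chromosome 9 (5450503 to 5470566, plus strand), encodes PD-L1, the main ligand of PD-1. In the control libraries (A, B, C) its levels were 54.1, 38.7 and 38.5 CPM. With hairpin #1 it was at 6.31, 3.77 and 4.50 CPM, and with hairpin #3 at 8.30, 4.61 and 5.25 CPM. The groups were far apart, and library A was the highest of its group in all 3 groups. The mean was 43.8 ± 8.95 CPM in the controls, 4.86 ± 1.31 with hairpin #1 and 6.05 ± 1.97 with hairpin #3 (SD, n = 3 each). With both hairpins together, the log2 fold change was -3.01 (SE 0.208), an 8.04-fold fall, with an adjusted p of 5.00e-07 in edgeR's test. It was -3.17 (SE 0.236) with hairpin #1 and -2.86 (SE 0.233) with hairpin #3, and the direct comparison of hairpin #3 with hairpin #1 gave 0.31 (SE 0.248, adjusted p 0.504).

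PDCD1LG2 encodes PD-L2, the other ligand of PD-1, and begins 60.1 kb downstream of the start of CD274 on the same strand (5510570 to 5571254). Its level was 11.6, 11.4 and 11.8 CPM in the controls, 11.6, 14.0 and 15.7 with hairpin #1 and 10.9, 13.1 and 13.8 with hairpin #3. The groups overlapped, with 4 of 6 knockdown libraries above all control libraries and 1 below. Its log2 fold change with both hairpins together was 0.18 (SE 0.131, adjusted p 0.318 in edgeR). Set side by side per kilobase, the CD274 level was 2.68, 1.95 and 1.87 times that of PDCD1LG2 in control libraries A, B and C, 0.313, 0.154 and 0.165 times with hairpin #1 and 0.439, 0.202 and 0.219 times with hairpin #3. PD-L1 was thus the more abundant of the PD-1 ligand transcripts in each control library, and PD-L2 in each knockdown library.

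VTCN1, on chromosome 1 (117143587 to 117210960, minus strand), encodes B7-H4, a B7 family ligand that inhibits T cells and is known from ovarian carcinomas. It had 63, 120 and 161 counts in control libraries A, B and C, or 3.05, 5.97 and 7.69 CPM, and 0 counts in all 6 knockdown libraries. The control libraries themselves spread more than for any other of the 10 genes relative to their mean (5.57 ± 2.35 CPM, SD, n = 3). Against a floor of 3 counts in each knockdown library, the level was at least 37.1-fold below the control mean. The adjusted p with both hairpins together was 3.90e-05 in edgeR. The bound leaves out the spread of the control libraries, of which A was the lowest at 3.05 CPM. It also takes no account of PCR copies, which are not independent molecules.

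CD276, on chromosome 15 (73683966 to 73714518, plus strand), encodes B7-H3, a ligand whose receptor is not settled. Its level was 75.0, 72.4 and 82.0 CPM in the controls, 61.8, 68.6 and 71.8 with hairpin #1 and 76.4, 75.5 and 81.6 with hairpin #3. Hairpin #1 libraries lay below all control libraries and hairpin #3 libraries among them. In the tests, CD276 gave a log2 fold change of -0.18 (SE 0.0942, adjusted p 0.150 in edgeR) with hairpin #1, 0.03 (SE 0.0942) with hairpin #3, and 0.21 (SE 0.0943, adjusted p 0.191) for hairpin #3 against hairpin #1. None of these passed the threshold.

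PVR, on chromosome 19 (44643798 to 44663583, plus strand), encodes the poliovirus receptor CD155. Its level was 162.9, 181.4 and 186.6 CPM in the controls, 95.05, 89.2 and 93.8 with hairpin #1 and 107.4, 96.3 and 104.0 with hairpin #3. All knockdown libraries lay below all controls by a margin larger than the spread within groups. The log2 fold change was -0.86 (SE 0.0840, adjusted p 9.43e-06 in edgeR) with both hairpins together, or a 1.81-fold fall, short of the 2-fold threshold. It was -0.93 (SE 0.0909) with hairpin #1 and -0.79 (SE 0.0907) with hairpin #3, and the hairpins did not differ detectably (0.15, SE 0.0906, adjusted p 0.360). PVR overlaps CEACAM19 (101 to 286 counts per library) on its own strand and CTB-171A8.1 (2 to 23 counts) on the other. The libraries carried no strand, so reads shared with these genes cannot be assigned. Immediately past the end of PVR, AC092066.1 changed by -0.80 on the log2 scale (adjusted p 0.000840).

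**Figure D2:**
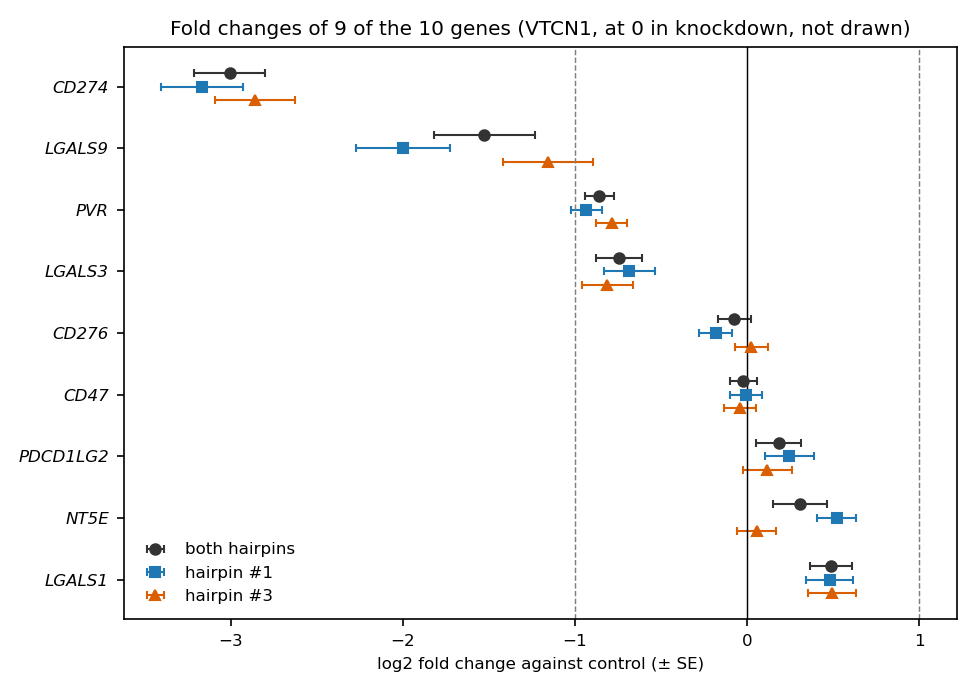
Log2 fold change against control (horizontal axis) of 9 of the 10 genes, with both hairpins together, hairpin #1 and hairpin #3; whiskers are 1 SE and dashed lines mark 2-fold. CD274 and LGALS9 lie beyond the 2-fold line on the lower side, PVR and LGALS3 between it and 0, and the largest separation between the hairpins relative to the errors is that of NT5E; VTCN1 is left out because its fitted fold against libraries at 0 is no bound.

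LGALS1 encodes galectin-1, a lectin known to promote apoptosis of activated T cells, and was the most abundant of the 10 genes. Levels were 470.4, 420.9 and 479.2 CPM in the controls, 538.0, 634.2 and 740.9 with hairpin #1 and 544.2, 646.4 and 739.1 with hairpin #3. All 6 knockdown libraries were above all 3 control libraries, with a wider spread within the knockdown groups. Its log2 fold change was 0.49 with both hairpins together (SE 0.123, adjusted p 0.00963 in edgeR), 0.48 with hairpin #1 and 0.49 with hairpin #3. Without control library B it was 0.43 with both hairpins together and no longer passed the test (adjusted p 0.0661).

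LGALS3 encodes galectin-3, which also binds intracellular partners and restrains T cells from outside. Levels were 56.7, 61.1 and 68.9 CPM in the controls, 29.1, 43.0 and 44.1 with hairpin #1 and 31.4, 36.8 and 38.2 with hairpin #3. The groups did not overlap, although the lowest control library exceeded the highest knockdown library by less than the range within hairpin #1. The log2 fold change was -0.75 with both hairpins together (SE 0.133, adjusted p 0.00103 in edgeR), a 1.68-fold fall, and the hairpins did not differ detectably (-0.13, SE 0.150, adjusted p 0.670).

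LGALS9, on chromosome 17 (27629798 to 27649560, plus strand), encodes galectin-9, a ligand of the T cell receptor TIM-3 (HAVCR2). Its level was low, at 3.73, 3.78 and 4.21 CPM in the controls, 0.608, 0.967 and 1.33 with hairpin #1 and 1.59, 1.76 and 1.89 with hairpin #3. The 3 groups were fully separated, with hairpin #1 the lowest. The log2 fold change was -1.53 (SE 0.294, adjusted p 0.00176 in edgeR) with both hairpins together, -1.998 (SE 0.274, adjusted p 6.53e-05) with hairpin #1 and -1.16 (SE 0.259, adjusted p 0.00337) with hairpin #3. The difference between the hairpins, 0.84 (SE 0.291), did not pass the adjusted test (adjusted p 0.0827). With the 2-fold threshold built into the test, LGALS9 was no longer called with both hairpins together (adjusted p 0.147) or with hairpin #3 (adjusted p 0.780). The near-identical paralogs LGALS9B and LGALS9C, at a group mean of at most 0.0484 CPM, can share reads with LGALS9, so its counts carry that uncertainty.

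NT5E, on chromosome 6 (85449584 to 85495791, plus strand), encodes CD73, the ectoenzyme that makes adenosine from AMP. Its levels were 95.6, 101.9 and 108.5 CPM in the controls, 144.7, 125.2 and 169.1 with hairpin #1 and 100.5, 102.7 and 115.0 with hairpin #3. Hairpin #1 libraries lay above every control library, whereas hairpin #3 libraries overlapped the controls. NT5E gave a log2 fold change of 0.52 (SE 0.114, adjusted p 0.00272 in edgeR) with hairpin #1 and 0.06 (SE 0.114, adjusted p 0.752) with hairpin #3. In the direct comparison hairpin #3 was lower than hairpin #1 by a log2 difference of -0.46 (SE 0.114, adjusted p 0.0180). It no longer passed without hairpin #1 library C (adjusted p 0.0796) or without hairpin #3 library A (adjusted p 0.0528) or B (adjusted p 0.0866).

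In hairpin #3 against hairpin #1, none of the 10 genes was called in edgeR, against 3.93% of all tested genes. NT5E alone passed the adjusted p, 3 of the 10 (NT5E, LGALS9 and CD276) had an unadjusted p under 0.05, and DESeq2's Wald test called 0. Without hairpin #1 library C, LGALS9 was called, with a log2 difference of 1.16 (adjusted p 0.0397).

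CD47, on chromosome 3 (108043298 to 108091025, minus strand), encodes the ligand of SIRP alpha. Levels were 39.2, 37.7 and 37.2 CPM in the controls, 39.7, 38.8 and 35.3 with hairpin #1 and 37.0, 38.2 and 35.7 with hairpin #3, and the groups overlapped. CD47 gave a log2 fold change of -0.02 (SE 0.0790, adjusted p 0.858 in edgeR) with both hairpins together, the smallest of the 10 in size.

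On a scale of CPM per kilobase of gene length, the order in control was LGALS1 (416), PVR (50.3), LGALS3 (26.0), NT5E (22.5), CD276 (13.8), CD274 (10.7), PDCD1LG2 (4.92), CD47 (4.82), VTCN1 (1.84) and LGALS9 (0.684). The ranges of the 3 control libraries overlapped between LGALS3 and NT5E, between CD276 and CD274, and between PDCD1LG2 and CD47. Within each control library, however, LGALS3 was above NT5E and CD276 above CD274. The order of PDCD1LG2 and CD47 changed between control libraries. These orders were not tested. CD274, which stood at the 73.3rd percentile of tested genes in control, was at the 29.1st with hairpin #1 and the 32.4th with hairpin #3, where it ranked 8 of the 10 by level. LGALS1 was at the 99.6th percentile in control and the 99.8th with either hairpin.

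Levels of the 20 nearest tested genes that averaged 10 CPM or more, 10 on each side, were set beside the genes that changed. These neighbours were not all close by. They spanned positions 2015219 to 14398983 around CD274 and 19648136 to 28662189 around LGALS9. Around CD274 the median log2 fold change with both hairpins together was 0.19, with a range of -1.28 (ERMP1) to 1.12 (NFIB), these 2 being the called neighbours. The median was 0.06 around VTCN1, 0.02 around LGALS9 with no neighbour called, and 0.05 around LGALS3. Around PVR it was -0.24, and 4 of 20 neighbours were called, namely BCL3 at 1.04, CADM4 at -1.18, KCNN4 at -1.46 and CBLC at -7.08. PVR lay 0.62 below the median of its neighbours on the log2 scale, but CADM4, KCNN4 and CBLC fell further than PVR. Around NT5E the median was 0.18 with hairpin #1 and 0.05 with hairpin #3, while NT5E itself was at 0.52 and 0.06.

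**Figure D3:**
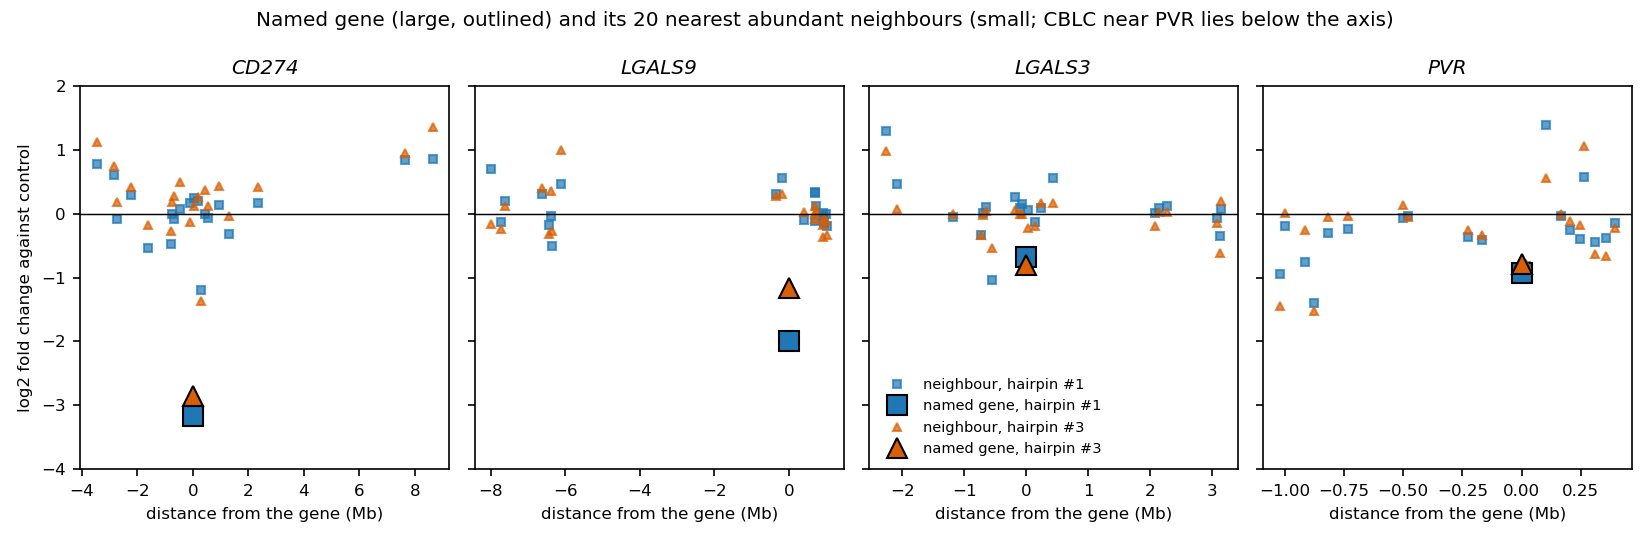
Log2 fold change against control (vertical axis) of CD274, LGALS9, LGALS3 and PVR (large, outlined) and of the 20 nearest genes that averaged 10 CPM or more (small), by distance of their starts in Mb (horizontal axis), for hairpin #1 (squares) and hairpin #3 (triangles). CD274 and LGALS9 lie below all of their neighbours with either hairpin, LGALS3 does so with hairpin #3 alone and PVR with neither, and CBLC near PVR lies below the axis.

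The genes whose profiles over the 9 libraries were most like those of the called genes were found by Pearson's r of log2(CPM + 0.5) among tested genes that averaged 10 CPM or more. For CD274, TAP2 was among these (r = 0.991, a log2 fold change of -0.74). VTCN1 was most like WNT10A (r = 0.997) and MYH14 (r = 0.996), and LGALS9 most like PLXNA1 (r = 0.993, -0.34) and RTKN (r = 0.986, -0.85). All of these genes and the 3 called genes share the step between control and knockdown over the same 9 libraries, so the values of r are descriptions with no test.

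The other genes of the same pathways were then counted in lists, and the values in brackets for each gene are its log2 fold change with both hairpins together and the adjusted p. Over all tested genes, 7.26% were called higher and 7.40% lower in this comparison, and the counts in each list are read against these shares. Of 15 tested costimulatory ligands of the B7, butyrophilin and TNF families, 3 were called higher and 2 lower, with a median log2 fold change of 0.44. CD70, the ligand of CD27, rose from 2.74 to 3.73 CPM in control to 20.8 to 29.8 CPM in the knockdown (3.07, adjusted p 6.24e-08 in edgeR). TNFSF9, the ligand of 4-1BB, rose from 3.58 to 5.42 CPM to 12.7 to 24.1 CPM (1.96, adjusted p 4.52e-05). BTNL9 changed by -1.11 (adjusted p 0.0312), a call lost on leaving out any one control or hairpin #1 library (adjusted p 0.0530 to 0.121, or a log2 fold change of -0.95 without hairpin #1 library C). It was also lost with the replicate letter as a block (adjusted p 0.0530) and with the 2-fold threshold built into the test. BTNL9 gave -1.83 with hairpin #1 (adjusted p 9.89e-05 in edgeR) and -0.62 with hairpin #3, which did not pass (adjusted p 0.0679). For BTNL9, hairpin #3 was higher than hairpin #1 by a log2 difference of 1.22 (adjusted p 0.0105).

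Of 8 tested genes of the nectin and PVR axis, 2 were called higher and 1 lower, with a median of -0.21. PVRL4 (nectin-4), an epithelial adhesion protein, fell from 18.9 to 26.7 CPM in control to 0.0467 to 0.598 CPM in the knockdown (-5.91, adjusted p 4.80e-08 in edgeR). PVRL3 (nectin-3), an adhesion partner of PVR, rose from 28.7 to 41.0 CPM to 67.6 to 93.8 CPM (1.26, adjusted p 1.86e-05), a call lost with the 2-fold threshold built into the test (adjusted p 0.0940). CD96, a receptor of PVR on T and natural killer cells, was at 0.239 to 1.02 CPM in the controls, 3.97 to 4.46 with hairpin #1 and 0.967 to 1.18 with hairpin #3. Its call with both hairpins together (2.34, adjusted p 0.0201) was lost without control library B (adjusted p 0.0931) or C (adjusted p 0.0900) and with the 2-fold threshold built into the test (adjusted p 0.147), and without control library A the log2 fold change was 3.28. The log2 fold change of CD96 with hairpin #3 alone, 1.07, did not pass (adjusted p 0.0768), and hairpin #3 was lower than hairpin #1 by a log2 difference of -1.93 (adjusted p 0.00323).

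Around CD73, 1 of 10 tested genes of adenosine metabolism was called higher and 2 lower, with a median of 0.28. ENTPD2, an ectoenzyme that acts on ATP upstream of CD73, fell from 3.87 to 7.57 CPM to 0.654 to 1.47 CPM (-2.52, adjusted p 3.06e-05 in edgeR). SLC29A2, an equilibrative nucleoside transporter, fell by 1.52 on the log2 scale (adjusted p 4.98e-05), and ADA, which degrades adenosine, rose by 1.27 (adjusted p 0.000364). The call of ADA was lost with the 2-fold threshold built into the test (adjusted p 0.253). ENTPD1 (CD39), the enzyme that feeds CD73 with AMP, was at 1.51 CPM in control and gave 0.23 (adjusted p 0.593).

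Among the other galectins 4 of 12 genes were tested, and 1 was called. LGALS7B fell from 4.18 to 6.69 CPM to 0.300 to 0.921 CPM (-3.01, adjusted p 1.15e-05 in edgeR), with the reservation that LGALS7 is a near-identical copy. LGALS3BP, a secreted ligand of galectin-3, had -0.09 (adjusted p 0.746) and LGALS8 had 0.14 (adjusted p 0.296).

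Of 10 tested genes around CD47 and phagocytosis, 3 were called higher and 1 lower, with a median of 0.16. CD24, a surface glycoprotein that binds Siglec-10 on macrophages, fell from 596.3 to 637.7 CPM in control to 44.9 to 72.0 CPM in the knockdown (-3.53, adjusted p 4.65e-09 in edgeR). LRP1, an endocytic receptor that takes part in engulfment, rose from 206.4 to 279.6 CPM to 518.1 to 780.7 CPM (1.33, adjusted p 3.03e-05), a call lost with the 2-fold threshold built into the test (adjusted p 0.0577). SIRPB1, of the SIRP family, was at 0.191 to 0.199 CPM in the controls, 2.80 to 5.44 with hairpin #1 and 15.9 to 33.6 with hairpin #3, and the hairpins differed by 2.76 on the log2 scale (adjusted p 4.61e-05). SIRPA, the receptor of CD47, is a close relative of SIRPB1 with which reads may be shared, and was at 64.5 CPM in the controls, 80.9 with hairpin #1 and 108 with hairpin #3 (0.55, adjusted p 0.0136).

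All 25 listed regulators of PD-L1 were tested, and 2 were called, both lower, with a median of 0.11. The log2 fold change was above 0 in 15 and below 0 in 10, and 11 that were not called passed the adjusted p alone. IRF1, the interferon-induced factor that binds the CD274 promoter in other cells, was at 20.5 to 35.8 CPM in the controls, 12.2 to 17.4 with hairpin #1 and 5.43 to 10.9 with hairpin #3 (-1.24, adjusted p 0.00578 in edgeR). With hairpin #1 alone IRF1 fell 1.85-fold (adjusted p 0.00882), short of the 2-fold threshold. For IRF1, hairpin #3 was lower than hairpin #1 by a log2 difference of -0.84 (adjusted p 0.0430). CMTM4, which stabilises PD-L1 protein, fell from 89.2 to 112 CPM to 37.6 to 53.5 CPM (-1.12, adjusted p 2.15e-05). Its relative CMTM6, named after its values were seen, fell from 124.8 to 137.6 CPM in control to 79.4 to 83.2 CPM with hairpin #1 and 61.6 to 76.1 CPM with hairpin #3 (-0.83, adjusted p 0.000124), short of 2-fold. JAK2, the interferon receptor kinase gene near CD274, did not pass the test (0.30, adjusted p 0.169). With the fold threshold built into the test, neither IRF1 (adjusted p 0.618) nor CMTM4 (adjusted p 0.509) was called.

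Of 25 tested genes for other inhibitory signals and natural killer ligands, 2 were called higher and 4 lower, with a median of -0.0001. CD200, an inhibitory ligand for myeloid cells, rose from 3.33 to 4.21 CPM to 15.5 to 28.9 CPM (2.51, adjusted p 3.08e-06 in edgeR). CD55, which protects cells from complement, rose from 22.03 to 27.6 CPM to 91.8 to 165.9 CPM (a 4.58-fold rise, adjusted p 8.16e-06). For CD55, hairpin #3 was lower than hairpin #1 by a log2 difference of -0.58 (adjusted p 0.0124). LAMP3, on this list although it encodes a lysosomal membrane protein, gave -1.55 with both hairpins together (adjusted p 0.0165 in edgeR). With hairpin #1 alone LAMP3 gave -0.96 (adjusted p 0.0227), short of 2-fold, and with hairpin #3 -2.62 (adjusted p 7.58e-05). Hairpin #3 was lower than hairpin #1 by a log2 difference of -1.66 (adjusted p 0.0124). The call of LAMP3 with both hairpins together was lost without control library B (adjusted p 0.0726) or C (adjusted p 0.0708). It was also lost with the 2-fold threshold built into the test (adjusted p 0.348). Receptors that lymphocytes carry were near 0, with 3 of 15 tested and 8 at 3 counts or fewer in all libraries, among them PDCD1, CTLA4 and HAVCR2. TNFRSF9 (4-1BB), which binds the product of TNFSF9, was called higher, from 0.339 to 0.647 CPM in control to 0.942 to 3.87 CPM in the knockdown (2.29, adjusted p 0.00192). Over the 7 pathway lists, 24 of 97 tested genes were called, beside 14.7% of all tested genes. The lists were chosen with earlier results of these data known, so these counts are descriptions.

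**Figure D4:**
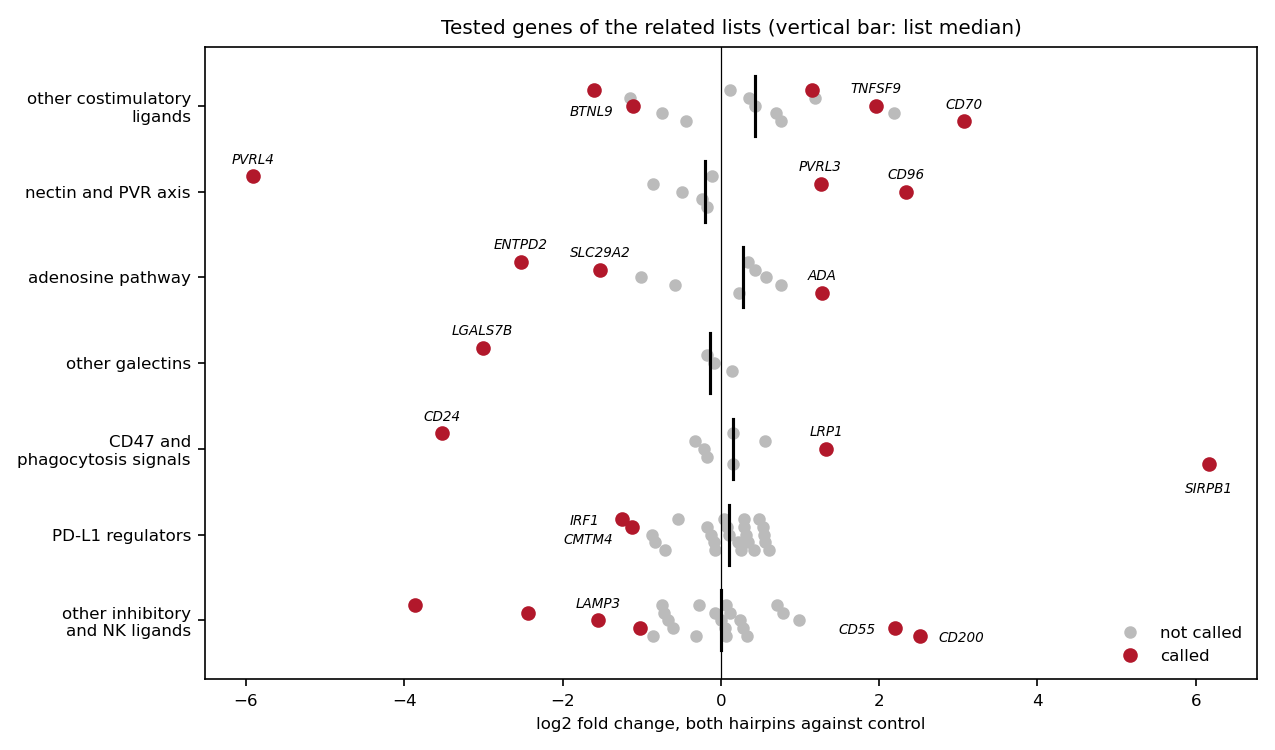
Log2 fold change with both hairpins against control (horizontal axis) of each tested gene in 7 lists of related genes (rows); red points were called, grey points were not, and black bars are list medians. Called genes lie on both sides of 0 in 5 of the 7 lists, and on the lower side alone among the other galectins and the regulators of PD-L1; SIRPG, at 0 in every control library, is not drawn.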

How the data were processed

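Poly(A) RNA of 3 control, 3 hairpin #1 and 3 hairpin #3 cultures, which the study describes as biological replicates, was sequenced without strand information. The submitters' processing notes name HISAT2 2.0.5, featureCounts 1.5.0-p3 and hg38. The authors deposited raw counts for 58676 genes, not normalized, and every count column was used. Gene positions and lengths are those of the count table.

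Genes were filtered with filterByExpr (minimum count 10, minimum total 15), scaled with TMM factors, and tested in R 4.3.3 with edgeR 4.0.16 (glmQLFit, glmQLFTest). P-values were adjusted by Benjamini-Hochberg over all 15975 genes that passed. Both hairpins formed 1 arm of 6 libraries against 3 controls, as in the study. Each hairpin, and hairpin #3 against hairpin #1, was tested in a 3-group model. SE is the absolute log2 fold change divided by the square root of F. A gene at 3 counts or fewer in every library of a group is given only a bound on its fold, against 3 counts in each library. The fits were tested on simulated data, in which changed genes had the same change with both hairpins. Changes that differ between the hairpins, or in the least abundant genes, were not simulated. Libraries of a group differed beyond sampling noise (chi-square per degree of freedom 6.52 to 39.6), so none was counted as a duplicate.

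The genes and lists were chosen with earlier results of these data known. All 10 genes are named whatever their values. From each other list, at most 3 genes are named, those with the largest fold change with both hairpins together among genes called with a mean of at least 1 CPM. Added to these are MPZL3, the 2 genes most like each called gene (1 of those for CD274 is not reported here), and the genes that overlap, copy or neighbour one of the 10 where its value turns on them, while other named genes are examples chosen after their values were seen. Alternatives were library totals or DESeq2 size factors for scaling, no filter or a filter at 1 CPM, DESeq2 1.42.0's Wald test, a block for the replicate letter, leaving out each library, no fold threshold or one built into the test, and another model (the mean of both hairpins in the 3-group model, or the compared libraries alone).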

Additional observations from a re-analysis of the deposited data

Results flagged for a closer look

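NT5E (CD73) differed between the hairpins under the same comparison with control. Hairpin #3 was lower than hairpin #1 by a log2 difference of -0.46 (SE 0.114, adjusted p 0.0180 in edgeR's 3-group model), with every hairpin #1 library above every hairpin #3 library. The adjusted p was above 0.05 without hairpin #1 library C or without hairpin #3 library A or B. No group had more than 3 libraries, so single libraries were not screened as outliers.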

How the results depend on the processing

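CD274 and VTCN1 were called lower with both hairpins together and with each hairpin under all alternatives tried. With no fold threshold, 6 of the 10 genes passed with both hairpins together, 7 with hairpin #1, 6 with hairpin #3 and 1 in hairpin #3 against hairpin #1, the related lists had 49 of 97, and the whole table had 5269, 6032, 5536 and 1857 genes. With the threshold inside the test, the whole table had 1317, 1539, 1481 and 206 genes and the related lists 12, which was chosen after seeing the data. Leaving out single libraries gave 0 to 1 of the 10 genes in hairpin #3 against hairpin #1. Small differences changed sign there. CD47 with hairpin #1 ranged from -0.0406 to 0.0413 (above 0 without control A or hairpin #1 C), CD276 with hairpin #3 from -0.0178 to 0.0764 (below 0 without control B or hairpin #3 C), NT5E with hairpin #3 from -0.0045 to 0.1003 (below 0 without hairpin #3 C), and LGALS1 in hairpin #3 against hairpin #1 from -0.1007 to 0.1359 (below 0 without hairpin #1 A or hairpin #3 C). LGALS1 also lost its adjusted p without control B in all 3 comparisons with control, without hairpin #1 C with hairpin #1 and without hairpin #3 C with hairpin #3. With 3 groups in the model, the mean of both hairpins gave NT5E an adjusted p of 0.0347. Deviations of same-letter libraries from their group means correlated at 0.0373 to 0.361 (9 pairs), and those of other letters at -0.322 to 0.132 (18 pairs). All same-letter values were above 0, and they were highest for letter A (0.306 to 0.361). Libraries of a letter may thus share some variation across groups, but the values do not show it for letter B. There, control B correlated at 0.0373 with hairpin #1 B and at 0.113 with hairpin #1 C. The labels do not say what the letters stand for, and the main tests did not pair them. With the replicate letter as a block, 3 of the 10 genes were called in each comparison with control and 0 between the hairpins, the whole table had 2306 calls with both hairpins together, the related lists had 21, BTNL9 lost its call, and the adjusted p of CD276 (hairpin #1, 0.0439, and between hairpins, 0.0454) and LGALS9 (between hairpins, 0.0412) fell under 0.05. The causes of these changes were not tested.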
